A study of Macaca mulatta with 8 samples.

Results

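Janus kinases (JAKs) and signal transducers and activators of transcription (STATs) form the signaling route of many cytokine receptors. The transcripts of 9 of these genes, the kinases JAK1, JAK2 and JAK3 and the transcription factors STAT2, STAT3, STAT4, STAT5A, STAT5B and STAT6, were examined in primary rhesus macaque microglia. The genes were chosen by symbol, and all 9 were found among the 35432 genes of the deposited count tables. Microglia, the macrophages that reside in the brain, came from the frontal subcortical white matter of 4 adult donors, R07110, R12016, R14143 and R02046. Cells were cultured for 8 days with serum and M-CSF, and on day 7 they received 10 µg/mL ultrapure LPS (uLPS), an agonist of Toll-like receptor 4, for 16 h. In the other condition, the same exposure to uLPS followed 1 h of pre-incubation with 5 µM MRS2578, an antagonist of the UDP receptor P2RY6. Each donor contributed 1 library per condition, which gave 8 libraries, and all cells received uLPS, so no library shows an unstimulated level. The comparison asks how JAK and STAT transcripts differ within an animal when MRS2578 is present.

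In this route, a cytokine brings the receptor chains together, and the JAKs bound to those chains phosphorylate each other, the receptor and then the STATs. Phosphorylated STATs pair through their SH2 domains, enter the nucleus and bind DNA. JAK1 and JAK2 serve a wide range of receptors, whereas JAK3 pairs with the common gamma chain and is best known from lymphoid cells. In macrophages, STAT2 works in type I interferon signaling, STAT3 downstream of IL-6 and IL-10, and STAT6 downstream of IL-4. STAT4 is the main STAT of IL-12, and STAT5A and STAT5B respond to GM-CSF and IL-3. These roles rest largely on phosphorylation, which a transcript count does not measure.

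Total counts ran from 9231109 to 32790348 per library, and the 9 transcripts together held 742 to 1200 CPM (counts scaled to library size). The donor R02046 was labelled in conflicting ways. The study's own table of differing genes lists values for 8 libraries, and every column matched 1 deposited library, up to a scaling factor. In 6 columns the condition was that of the sample label, and in the 2 columns of R02046 it was the other condition. Which of the assignments holds was not decided here. Results are therefore given in turn as labelled, after exchanging the conditions of the 2 R02046 libraries, and without R02046. Of the microglia and macrophage markers, 12 of the 14 in the files had a mean of at least 1 CPM, here and from here on after TMM scaling. CD14 was at 4768 to 7646 CPM and CSF1R at 1007 to 1471 CPM. TMEM119 stayed at or below 0.316 CPM and CX3CR1 at or below 2.21 CPM. The summed fibroblast markers ran from 90.2 to 1191 CPM, with the highest value in the uLPS library of R14143. The sums were 157 to 295 CPM for endothelial or mural, 45.9 to 150.5 for astrocyte and 61.3 to 75.9 for oligodendrocyte markers. Of these markers, 3 of 6, 3 of 5 and 1 of 5 in the files had a mean of at least 1 CPM. The part of other cell types in the results below was not tested.

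STAT5A and STAT5B are described by sequence first, because their transcripts are so alike that a read can fit both. On the macaque assembly Mmul_10, STAT5B lies at chr16:53322391-53413152 on the minus strand and STAT5A at chr16:53413223-53437928 on the plus strand. The genes point away from each other, and 70 bases separate their first annotated bases. STAT3 follows at chr16:53439266-53524562 on the minus strand, 1337 bases beyond the end of STAT5A. The longest stretch shared by STAT5A and STAT5B transcripts spanned 325 bases of coding sequence in 3 exons. It lies between chr16:53425565-53426558 in STAT5A and chr16:53341912-53342899 in STAT5B, introns included. Its first 300 bases, and the gap between the genes on the plus strand, are shown as NCBI gives them.
Shared by STAT5A and STAT5B: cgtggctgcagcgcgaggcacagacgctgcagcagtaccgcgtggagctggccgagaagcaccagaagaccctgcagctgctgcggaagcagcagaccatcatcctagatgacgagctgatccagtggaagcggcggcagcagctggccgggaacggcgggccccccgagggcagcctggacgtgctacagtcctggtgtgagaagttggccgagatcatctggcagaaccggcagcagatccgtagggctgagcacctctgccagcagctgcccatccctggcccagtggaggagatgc
Between STAT5B and STAT5A: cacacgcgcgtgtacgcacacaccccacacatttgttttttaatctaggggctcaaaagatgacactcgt
Of all 50-base windows of STAT5A transcripts, 18.4% also occurred in STAT5B, and 14.3% of the STAT5B windows occurred in STAT5A. With 100-base windows, the shares were 9.93% and 7.70%. No other pair among the 9 genes shared a window of either length. Since the counting used unique reads, reads that lie wholly within shared sequence belong to neither count, and the counts of both genes are uncertain to that extent.

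The region before the transcription start was read for the letters of 3 motifs on both strands. The motifs were TTCNNNGAA, the core of the gamma-activated site bound by most STAT dimers, TTCNNNNGAA, the longer-spaced form preferred by STAT6, and GAAANNGAAA, the core of the interferon-stimulated response element. Across 26 windows of 250 bases, 1 for each annotated start of the 9 genes, TTCNNNGAA and GAAANNGAAA had 0 matches. The letters TTCNNNNGAA occurred in 5 windows of 3 genes, JAK2, STAT5A and STAT6, and in 2 of the 9 genes, STAT5A and STAT6, before the outermost start. Among 21102 genes of the annotation, read before their outermost start, the shares with a match were 5.98% for TTCNNNGAA, 4.82% for TTCNNNNGAA and 3.01% for GAAANNGAAA. The STAT6 window is shown because the match falls before the gene of the factor that prefers this spacing. It covers chr11:56675154-56675403 on Mmul_10, read on the minus strand, and capitals mark the match.
Upstream of STAT6: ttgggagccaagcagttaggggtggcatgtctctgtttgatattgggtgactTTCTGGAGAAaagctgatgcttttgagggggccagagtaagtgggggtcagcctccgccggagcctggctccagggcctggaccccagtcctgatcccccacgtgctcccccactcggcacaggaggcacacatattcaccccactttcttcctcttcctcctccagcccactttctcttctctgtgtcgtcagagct
All 3 annotated starts of STAT6 had this match within their windows. Binding was not measured, and a match is a description of the letters only.

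Per length, JAK1 and the interferon, IL-4 and IL-6 related STATs were the abundant transcripts, and JAK3 and STAT4 were scarce. The values in this paragraph are levels in CPM per kb of the longest annotated transcript, as medians of 8 libraries. JAK1 was at 56.6, STAT2 at 39.0, STAT6 at 33.2 and STAT3 at 26.1. STAT5A was at 15.0, JAK2 at 13.4 and STAT5B at 7.09. JAK3 was at 1.61 and STAT4 at 0.262. STAT3 exceeded STAT5A in 8 of 8 libraries, and so did JAK2 over STAT5B, STAT5B over JAK3, and JAK3 over STAT4, whichever transcript length was used. The order among the upper 4 was not fixed. STAT2 exceeded STAT6 in 8 of 8 libraries by the longest transcript but in 1 of 8 by coding length. JAK1 exceeded STAT2 in 6 of 8 libraries, STAT6 exceeded STAT3 in 5 of 8, and STAT5A exceeded JAK2 in 6 of 8, all by the longest transcript.

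**Figure D1:**
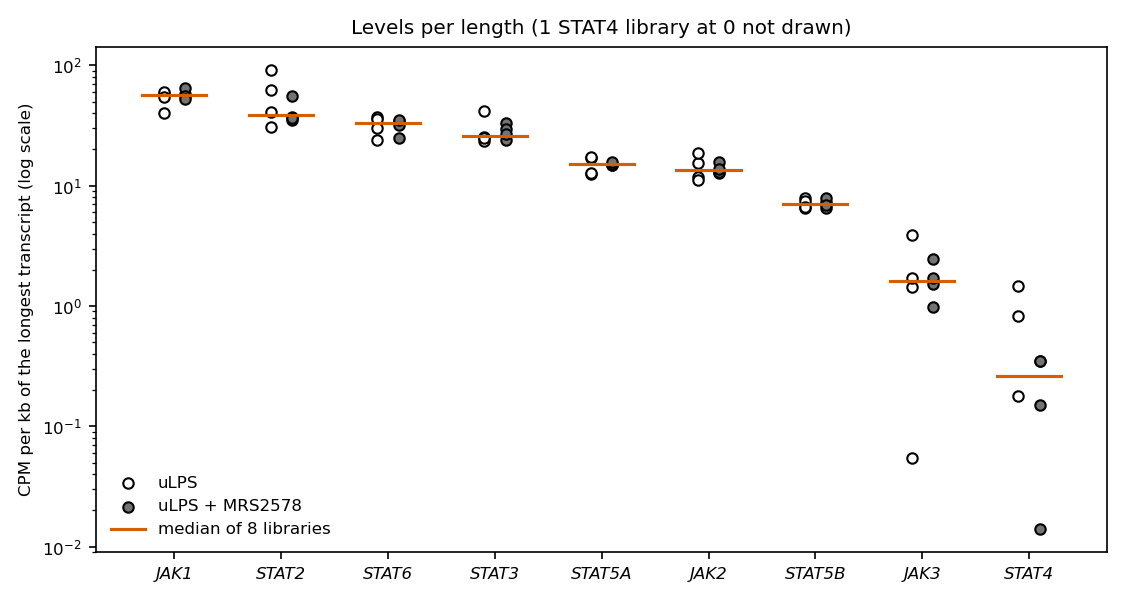
Level of each transcript in CPM per kb of its longest annotated transcript (log axis), with uLPS (open points, n = 4) and with uLPS and MRS2578 (grey points, n = 4), and the median of all 8 libraries as a bar. Medians fall from 56.6 for JAK1 to 0.262 for STAT4, and the STAT4 library at 0 counts is not drawn.

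With the deposited labels, none of the 9 transcripts passed the test for an MRS2578 effect. The fit was edgeR's quasi-likelihood model of condition and donor, and calls needed an adjusted p under 0.05, adjusted over all genes tested. The test called 0 of 9 JAK and STAT genes and 0 of all 12131 genes (0.00%). At an unadjusted p under 0.05 it had 1 of the 9, STAT4, against 624 of all genes (5.14%). With these labels DESeq2 and edgeR's likelihood ratio test also called 0 of the 9, and 1 (0.00824%) and 5 (0.0412%) of all genes. With the R02046 libraries exchanged, 0 of 9 were called, against 75 of all genes (0.618%), and 2 of 9, STAT2 and STAT4, had an unadjusted p under 0.05, against 16.4% of all genes. Without R02046, 0 of 9 and 0 of 12295 genes (0.00%) were called, and the same 2 transcripts had an unadjusted p under 0.05, against 13.6%. Fold changes below 0 were found for 4 of the 9 transcripts with the labels, 8 after the exchange and 7 without R02046, against 52.1%, 49.8% and 50.5% of all genes. The median log2 fold change of the 9 transcripts was 0.00 with the labels, -0.11 after the exchange and -0.07 without R02046, and that of all genes tested was -0.01, 0.00 and -0.00. In such bulk samples, fewer cells of a type and less RNA per cell cannot be told apart.

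JAK1, the kinase shared by interferon, IL-6-family and common gamma chain receptors, differed little between conditions outside R02046. It lies at chr1:159362861-159600374 on the plus strand. With uLPS it was at 289 CPM in R07110, 304 in R12016, 277 in R14143 and 201 in R02046. With uLPS and MRS2578 it was at 289, 327, 264 and 281 CPM in the same order of donors. The conditions overlapped, and the library labelled uLPS of R02046 was the lowest of all. The log2 fold change was 0.13 ± 0.12 (SE, n = 4 donors) with an edgeR adjusted p of 0.906. It turned to -0.11 ± 0.11 with the R02046 libraries exchanged (edgeR adjusted p = 0.680) and was 0.01 ± 0.10 without that donor (edgeR adjusted p = 0.974).

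JAK2, the kinase of the GM-CSF, IL-3 and interferon-gamma receptors, had differences of opposite sign in different donors. It lies at chr15:78701446-78857474 on the minus strand. With uLPS it was at 82.1 CPM in R07110, 99.6 in R12016, 59.8 in R14143 and 63.8 in R02046. With MRS2578 it was at 68.1, 84.6, 73.5 and 69.8 CPM in that order. It was lower with the antagonist in R07110 and R12016 and higher in R14143 and, as labelled, R02046. Its log2 fold change was -0.02 ± 0.12 (SE, edgeR adjusted p = 0.991). It was -0.09 ± 0.11 after the exchange (edgeR adjusted p = 0.770) and -0.07 ± 0.14 without R02046 (edgeR adjusted p = 0.870).

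JAK3, the kinase of the common gamma chain, was scarce, and its 2 R02046 libraries stood far apart. It lies at chr19:17345847-17368458 on the minus strand. With uLPS it had 184 counts in R07110, 237 in R12016, 131 in R14143 and 2 in R02046, or 5.60, 15.1, 6.66 and 0.213 CPM. With MRS2578 it had 146, 153, 119 and 52 counts, or 5.90, 9.68, 6.65 and 3.80 CPM. R07110 and R14143 hardly differed between conditions, R12016 was lower with the antagonist, and R02046 was higher as labelled. In R02046 the CPM ratio of the library labelled MRS2578 to that labelled uLPS was 17.8, with an exact 95% interval of 4.69 to 151 that covers counting error only. The mean log2 CPM difference within donors was 0.76 (SD 1.93, n = 4, prior count 2). The log2 fold change of JAK3 was 0.49 by DESeq2 and 0.50 by edgeR's likelihood ratio test. In the main fit it was 0.20 ± 0.47 (SE, edgeR adjusted p = 0.959). It was -0.45 ± 0.35 with the libraries exchanged (edgeR adjusted p = 0.572) and -0.20 ± 0.21 without R02046 (edgeR adjusted p = 0.734). The sign thus turned with the handling of that donor, and it also turned in a fit without the donor term, at -0.12.

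**Figure D2:**
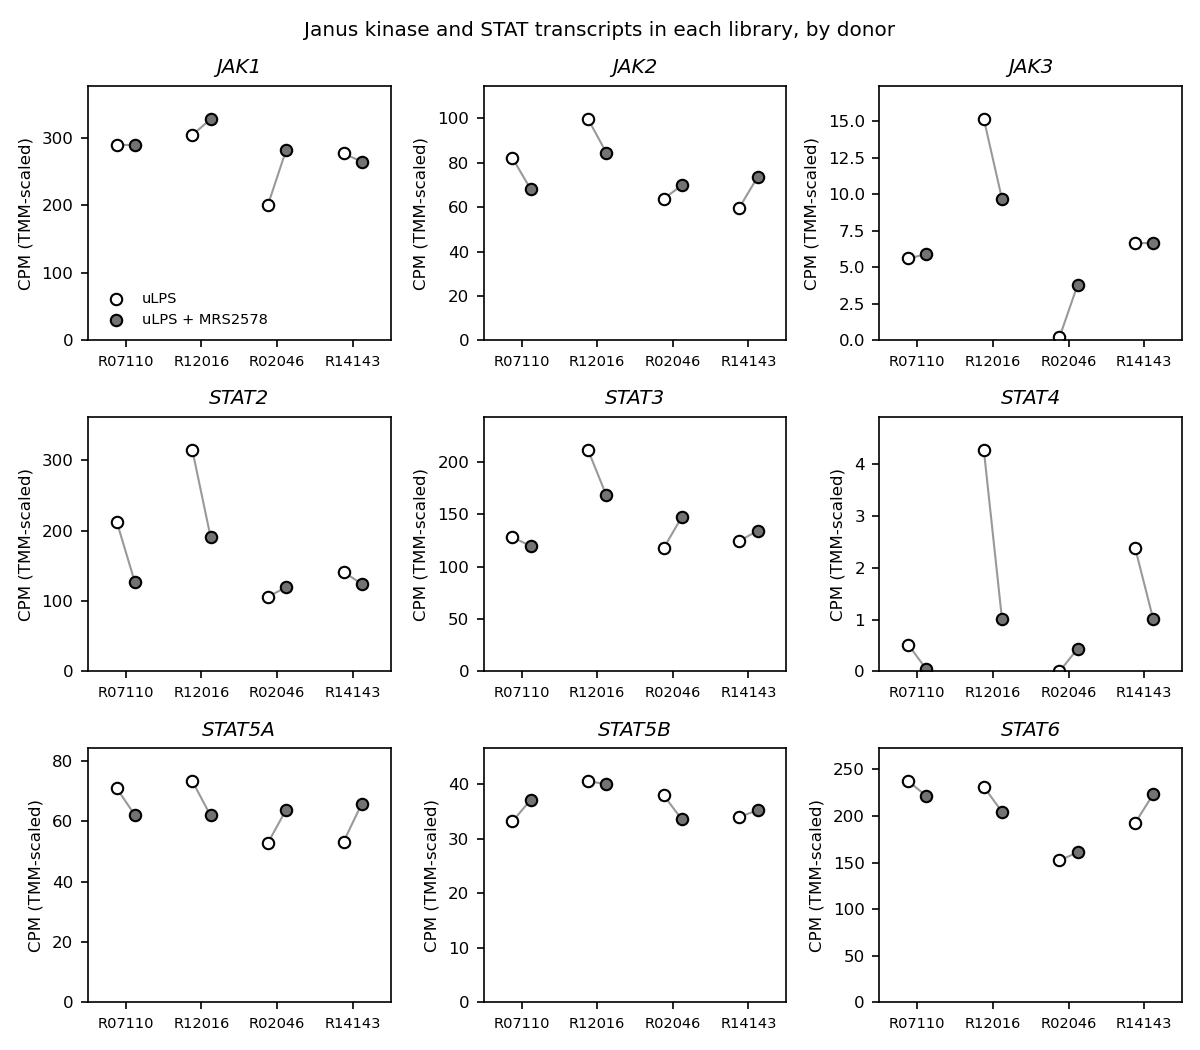
TMM-scaled CPM of each JAK and STAT transcript in each library, by donor, with uLPS (open points) and with uLPS and MRS2578 (grey points) joined by a line within a donor, and the R02046 libraries as labelled. STAT2 and STAT4 are lower with the antagonist in all donors but R02046, and the other panels show no common direction in those 3 donors.

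STAT2, the partner of IRF9 in the interferon-stimulated gene factor, had the largest fitted difference among the 7 transcripts with at least 356 counts in every library. With uLPS it was at 213 CPM in R07110, 314 in R12016, 141 in R14143 and 106 in R02046. With MRS2578 it was at 127, 192, 124 and 119.8 CPM in the same order. It was lower with the antagonist in R07110, R12016 and R14143, with log2 CPM differences of -0.75, -0.71 and -0.18, and higher in R02046 as labelled, with 0.18. The means were 193 ± 92.0 CPM with uLPS and 141 ± 34.1 CPM with MRS2578 (SD, n = 4), so the groups overlapped. The log2 fold change was -0.37 ± 0.17 (SE), with an edgeR adjusted p of 0.878. After the exchange it was -0.46 ± 0.12 (edgeR adjusted p = 0.134), and without R02046 it was -0.55 ± 0.14 (edgeR adjusted p = 0.211). Under other tests chosen after the data were seen, and only with the R02046 libraries exchanged, STAT2 passed the threshold, with an adjusted p of 0.0295 by DESeq2 and 0.0400 by edgeR's likelihood ratio test. DESeq2 then called 583 of all genes (4.81%) and the likelihood ratio test 616 (5.08%). With the exchange and without R14143, the quasi-likelihood test called 918 genes (7.57%), STAT2 among them (log2 fold change -0.56, edgeR adjusted p = 0.0361). STAT2 lies at chr11:55921112-55940827 and overlaps APOF on the same strand by 590 bases.

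STAT4, the STAT of IL-12 signaling, had the largest fitted difference of the 9 and the fewest counts. It lies at chr12:78251363-78407623 on the minus strand. With uLPS it had 17 counts in R07110, 67 in R12016, 47 in R14143 and 0 in R02046, which are 0.518, 4.28, 2.39 and 0 CPM. With MRS2578 it had 1, 16, 18 and 6 counts, or 0.0404, 1.01, 1.01 and 0.439 CPM. In the uLPS library of R02046, at 0 counts, the limit that a count of 0 allows (3 counts) is 0.320 CPM. It was lower with the antagonist in R07110, R12016 and R14143, and higher in R02046 as labelled. In R07110 the ratio of the uLPS to the MRS2578 library was 12.8, with an exact 95% interval of 2.01 to 535 for counting error. The mean log2 CPM difference within donors was -0.72 (SD 2.09, n = 4, prior count 2), and -0.38 with a prior count of 0.25. The fitted log2 fold change of STAT4 was -1.52 ± 0.60 (SE, unadjusted p = 0.0388 and adjusted p = 0.878 by edgeR). It was -1.88 ± 0.43 after the exchange (edgeR adjusted p = 0.0840) and -1.83 ± 0.43 without R02046 (edgeR adjusted p = 0.191). With the libraries exchanged, and again under tests chosen after the data were seen, its adjusted p was 0.0203 by DESeq2 and 0.00184 by edgeR's likelihood ratio test. Of the 7 T and NK lymphocyte markers in the files, CD3G and NKG7 had 0 counts in all libraries, and CD3D, CD3E, CD2 and CD247 were each above 0 in 1 library, at 0.112 CPM or less. CD8A was at 5.69 to 50.7 CPM. The part of lymphocytes in the STAT4 values was not tested.

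STAT2 and STAT4 were thus the 2 of 9 transcripts that were lower with the antagonist in each of R07110, R12016 and R14143, a pattern found in 19.8% of all genes tested. None of the 9 was higher in each of those 3 donors, against 17.0% of all genes. In R02046 as labelled, both had the opposite sign. That reversal was common: of the 4459 genes with 1 sign in the other 3 donors, 64.7% had the opposite sign in R02046.

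**Figure D3:**
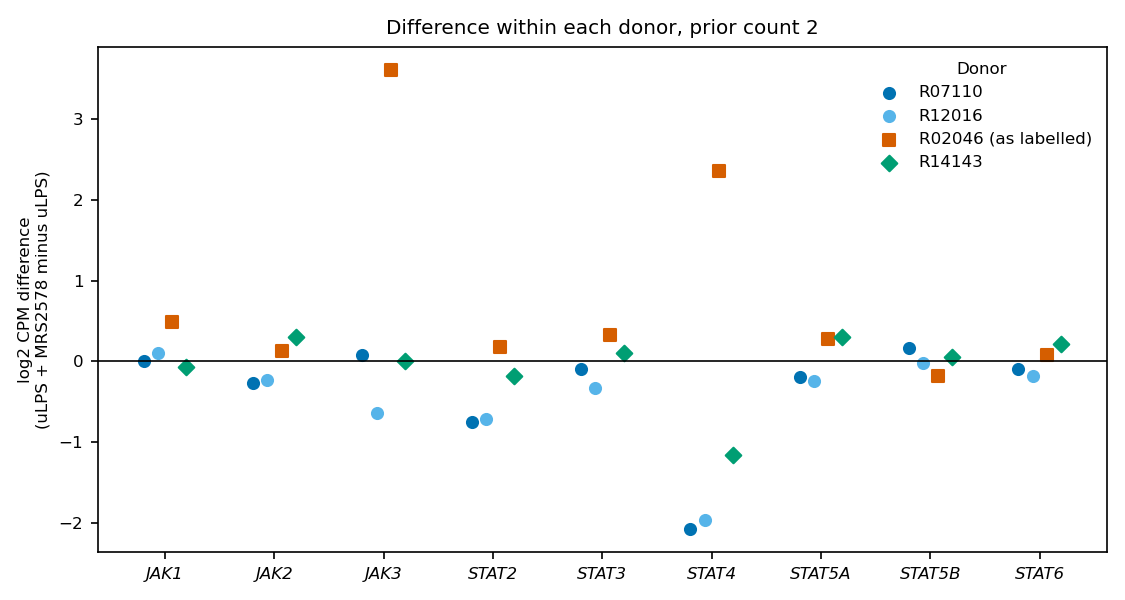
Difference in log2 CPM (prior count 2) between uLPS with MRS2578 and uLPS within each donor, 1 point per donor and transcript, with R02046 as labelled (squares). The largest values are those of JAK3 and STAT4 in R02046, 3.61 and 2.35, and the STAT4 values of the other donors lie between -2.08 and -1.16.

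STAT3, the transcription factor of the IL-6 and IL-10 receptors, did not differ in a common direction. With uLPS it was at 128 CPM in R07110, 211 in R12016, 125 in R14143 and 118 in R02046. With MRS2578 it was at 119.6, 168, 134 and 147 CPM. R12016 was the highest donor in both conditions, and the groups overlapped. The log2 fold change was -0.00 ± 0.13 (SE, edgeR adjusted p = 1). It was -0.16 ± 0.10 with the R02046 libraries exchanged (edgeR adjusted p = 0.468) and -0.11 ± 0.12 without them (edgeR adjusted p = 0.746).

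STAT6, the transcription factor of IL-4 and IL-13 signaling, was at 237 CPM in R07110, 231 in R12016, 192 in R14143 and 152 in R02046 with uLPS. With MRS2578 it was at 221, 204, 223 and 161 CPM. Both R02046 libraries were lower than every library of the other donors. Its log2 fold change was 0.00 ± 0.11 (SE, edgeR adjusted p = 0.998), and it stayed within -0.04 to 0.00 after the exchange and without R02046. STAT6 lies at chr11:56652940-56675153 and overlaps NAB2 on the opposite strand by 6415 bases. The strand setting of the counting is not given in the sources used here, so reads from that overlap may not be told apart.

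STAT5A and STAT5B, the paired factors of GM-CSF and IL-3 signaling, differed little in level between conditions. STAT5A was at 70.9 CPM in R07110, 73.3 in R12016, 53.3 in R14143 and 52.8 in R02046 with uLPS, and at 62.0, 61.9, 65.8 and 63.9 CPM with MRS2578. STAT5B was at 33.2, 40.6, 34.0 and 38.0 CPM with uLPS and at 37.2, 40.0, 35.3 and 33.6 CPM with MRS2578. STAT5A spanned 61.9 to 65.8 CPM with MRS2578 and 52.8 to 73.3 CPM with uLPS, a difference in spread that was not tested. The log2 fold changes were 0.03 ± 0.13 for STAT5A and 0.01 ± 0.10 for STAT5B (SE), with edgeR adjusted p-values of 0.979 and 0.997. After the exchange they were -0.10 ± 0.12 and 0.09 ± 0.10, with edgeR adjusted p-values of 0.732 and 0.684. Without R02046 they were -0.05 ± 0.14 and 0.07 ± 0.11, with edgeR adjusted p-values of 0.919 and 0.840. The sign for STAT5A thus turned without R02046, and it also turned without R14143, where the log2 fold change was -0.060.

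Within a library, the balance of STAT5A and STAT5B does not depend on scaling. With uLPS, STAT5A made up 68.1% of the summed STAT5A and STAT5B counts in R07110, 64.3% in R12016, 61.0% in R14143 and 58.2% in R02046. With MRS2578 the shares were 62.5%, 60.7%, 65.1% and 65.5%. The exact (Clopper-Pearson) 95% intervals, which cover counting error only, were widest in the uLPS library of R02046, from 54.8% to 61.5%. The share was lower with the antagonist in R07110 and R12016 and higher in R02046, as labelled, and R14143. The mean difference was 0.561 percentage points (SD 6.16, n = 4), and a two-sided exact permutation test over donors gave p = 0.875, where the smallest p possible is 0.125. With the R02046 libraries exchanged the mean difference was -3.13 percentage points (exact permutation p = 0.375), and without R02046 it was -1.71 (exact permutation p = 0.75).

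JAK2, STAT3, STAT5A and STAT6 shared 1 pattern of signs, in that all 4 were lower with MRS2578 in R07110 and R12016 and higher in R02046, as labelled, and R14143. Among all genes tested, 10.9% had these signs. The pattern was taken from the values of these transcripts, so that share is a description and no test. The differences were small, from -0.33 to 0.32 on the log2 scale. STAT5B, for which R12016 and R02046 were lower and the other two higher, ran from -0.18 to 0.16.

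**Figure D4:**
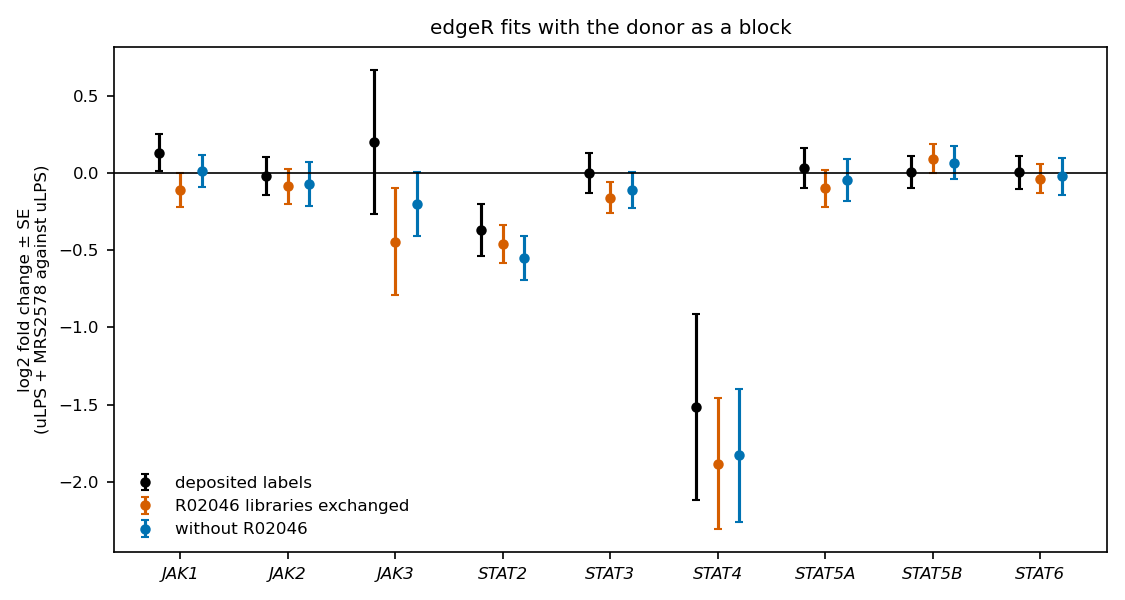
Fitted log2 fold change of each transcript (uLPS with MRS2578 against uLPS) with its standard error, with the deposited labels (black, n = 4 donors), with the R02046 libraries exchanged (orange, n = 4) and without R02046 (blue, n = 3). STAT2 and STAT4 lie below 0 in all 3 fits, JAK1, JAK3, STAT5A and STAT6 change sign between fits, and none of the values passed the threshold in these fits.

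Levels were also compared among the donors. Of the 9 transcripts, 8 were highest in R12016 and 6 were lowest in R02046, by the mean of both libraries of a donor. The shares of all genes with these extremes were not computed, and the R02046 libraries had the fewest total counts. The fold between the highest and the lowest donor was 1.16 for STAT5A and for STAT5B, 1.31 for JAK1, 1.38 for JAK2, 1.47 for STAT6 and 1.53 for STAT3. It was 2.24 for STAT2 and 6.18 for JAK3. STAT4 ran from 0.219 CPM in R02046 to 2.64 CPM in R12016. Tests of the donor terms were set against the spread between the libraries of a donor, which differ in condition. In edgeR's quasi-likelihood test of the donor terms, 0 of 9 transcripts passed an adjusted p of 0.05, against 7.35% of all genes tested. At an unadjusted p under 0.05 there were 5 of 9, against 28.7% of all genes. DESeq2 called 3 of 9, JAK3, STAT2 and STAT3, against 20.3% of all genes, and edgeR's likelihood ratio test called 2 of 9, STAT2 and STAT4, against 22.9%. STAT2 was nearest, with an edgeR adjusted p of 0.0800, followed by STAT4 with 0.0945. With the R02046 libraries exchanged, which alters the condition term of the same fit, 3 of 9 passed, against 18.9% of all genes. These were STAT2, STAT3 and STAT4, with edgeR adjusted p-values of 0.0137, 0.0434 and 0.00916. Without R02046, STAT4 alone passed (edgeR adjusted p = 0.0450), against 7.39% of all genes.

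Each transcript was also matched to the other named genes by the Pearson correlation of log2 CPM over the 8 libraries, among genes with a mean of at least 10 CPM. The libraries come in pairs from 4 donors, so these correlations also hold what the donors share and the differing depths, and they are given as a description. The genes given had the highest r of 7986 or 7987 compared per transcript. Over only 8 libraries, high values can come from that selection alone. The genes most like STAT2 were IFI16, a DNA sensor, and HELZ2, a helicase, with r of 0.992 and 0.986. IFI16 is known to be induced by interferon. JAK2 was most like RASGRP3, an exchange factor for Ras (r = 0.979). For STAT3 they were the kinase BMP2K and SEC23IP (r = 0.969 and 0.957), and for JAK1 they were the endosomal GTPase RAB5B and C18H18orf25 (r = 0.952 and 0.943). STAT5A was most like the histone methyltransferase NSD1 and UBP1, with r of 0.967 for both, and STAT5B most like the splicing factor CWC22 and GTF2F1 (r = 0.948 and 0.945). STAT6 was most like BAG4 and CRAMP1 (r = 0.976 and 0.970). The sparse JAK3 and STAT4 were most like BRAF and KLHL28 (r = 0.978 and 0.971) and MBD5 and PRDM4 (r = 0.969 and 0.967). Among the 9 transcripts themselves, r was 0.927 for JAK1 with JAK3, 0.883 for JAK2 with STAT2 and 0.846 for JAK2 with STAT5A. STAT5A and STAT5B had an r of 0.077. In the library labelled uLPS of R02046, JAK3 had 2 counts and STAT4 had 0, and JAK1 was at its lowest. How far the correlations of JAK1, JAK3 and STAT4 rest on that library was not tested.

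The other genes of the route were grouped by role into receptor chains, ligands, inhibitors, partners and known STAT targets. With the deposited labels, 0 genes were called in each of the 5 groups, against 0.00% of all genes. With the R02046 libraries exchanged, 4 of the 76 tested were called, against 0.618% of all genes. The groups were chosen with earlier results of these data known, so these counts describe the listed genes and are no test of the route.

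Among receptor chains, 0 of 20 tested were called with the labels and 1 of 20 after the exchange, which was lower. That gene was IL2RA, the alpha chain of the IL-2 receptor, with a log2 fold change of -1.01 ± 0.54 with the labels (SE, edgeR adjusted p = 0.878) and -1.57 ± 0.17 after the exchange (edgeR adjusted p = 0.0271). The 3 most abundant receptor chains did not pass in either fit. IL7R, the IL-7 receptor chain, had log2 fold changes of -0.64 ± 0.41 and then -1.08 ± 0.19 (edgeR adjusted p = 0.881 and 0.0526). IFNGR2 of the interferon-gamma receptor had -0.23 and -0.28, and IL10RA of the IL-10 receptor had -0.05 and -0.28. The median log2 fold change of the group was -0.07 with the labels, -0.26 after the exchange and -0.20 without R02046.

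Among the ligands, 0 of 11 tested were called in either fit. IL6, which signals through STAT3, had a mean of 305 ± 185 CPM with uLPS, against 102 ± 27.3 CPM when MRS2578 was present (SD, n = 4). The log2 CPM difference of IL6 was -1.50, -2.32 and -1.62 in R07110, R12016 and R14143, and 0.36 in R02046 as labelled. Its log2 fold change was -1.31 ± 0.40 with the labels (edgeR adjusted p = 0.878) and -1.47 ± 0.27 after the exchange (edgeR adjusted p = 0.0599). IL12B, a subunit of the IL-12 that signals through STAT4, had -1.57 ± 0.83 and then -2.05 ± 0.51 (edgeR adjusted p = 0.878 and 0.109). OSM, a cytokine of the IL-6 family, had -0.12 and -0.30. The group's median was -0.18 with the labels, -0.42 after the exchange and -0.33 without R02046.

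Of the inhibitors, 0 of 18 tested were called in either fit, and of the partners, 0 of 9. The phosphatases PTPN6 and PTPRC had log2 fold changes of 0.03 and -0.14 with the labels and -0.15 and -0.35 after the exchange. SH2B3, an adaptor that restrains JAK2, had 0.04 and 0.02. The coactivator EP300 had -0.01 and -0.18, the nuclear import factor KPNA1 had 0.05 and 0.02, and the adaptor GRB2 had -0.06 and -0.09. The medians were -0.01 for both groups with the labels. After the exchange they were -0.13 for the inhibitors and -0.11 for the partners, and without R02046 they were -0.10 for both.

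Of the known STAT targets, 0 of 18 tested were called with the labels and 3 of 18 after the exchange, 2 of them lower and 1 higher. CD274, the immune checkpoint ligand PD-L1, had a log2 fold change of -0.76 ± 0.33 with the labels and -1.03 ± 0.16 after the exchange (SE, edgeR adjusted p = 0.878 and 0.0458). IL4I1, an amino acid oxidase induced by IL-4, had -0.81 ± 0.38 and -1.19 ± 0.14 (edgeR adjusted p = 0.878 and 0.0326). CCND1, or cyclin D1, had 0.44 ± 0.26 and 0.72 ± 0.12 (edgeR adjusted p = 0.878 and 0.0496). The survival factor MCL1 had 0.04 and 0.01, the adhesion molecule ICAM1 had -0.24 and -0.42, and HIF1A had -0.05 and -0.17. The median was -0.14 with the labels, -0.31 after the exchange and -0.30 without R02046. Without R02046, 0 genes of any of the 5 groups were called.

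**Figure D5:**
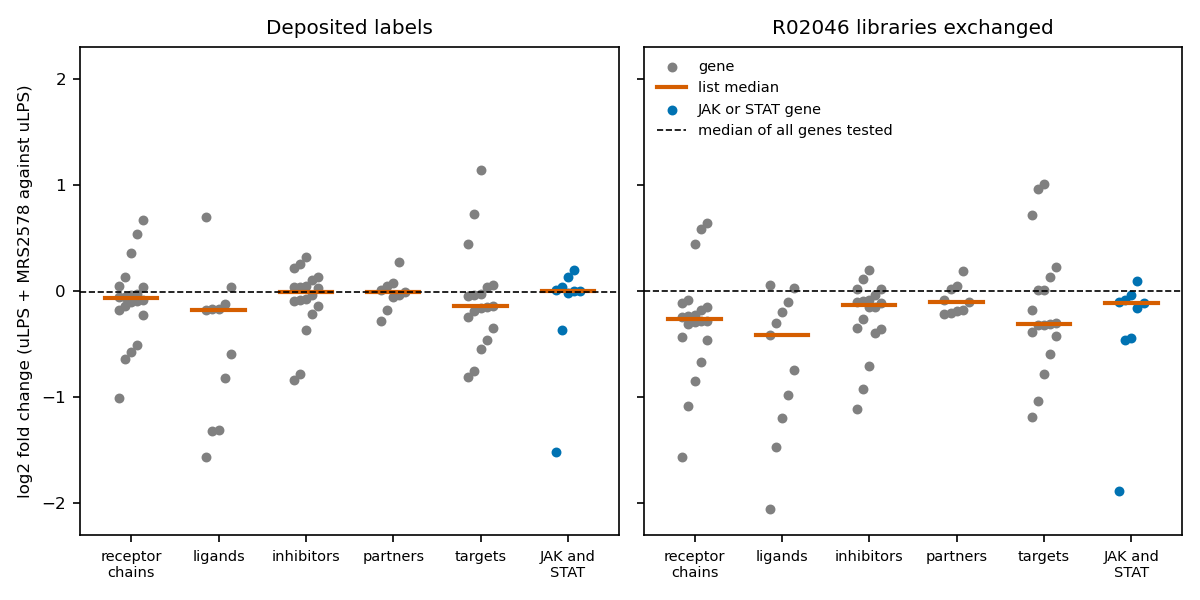
Log2 fold change (uLPS with MRS2578 against uLPS) of the tested genes of each group and of the 9 JAK and STAT transcripts, with the deposited labels (left) and the R02046 libraries exchanged (right), group medians as orange bars and the median of all genes tested as a dashed line. The ligand median moves from -0.18 to -0.42 and that of the JAK and STAT transcripts from 0.00 to -0.11, while that of all genes tested stays within 0.01 of 0.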

How the data were processed

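RNA was measured in 8 libraries, from 4 donors with uLPS and with uLPS after MRS2578. The deposited values are whole-number counts per Ensembl gene on Mmul_10, without normalization. Per the study's methods, the authors counted unique reads within exons with HTSeq after alignment with STAR, whereas the submitters' processing notes name Trimmomatic (0.30), TopHat2 (2.0.14), SAMtools (1.3) and HTSeq (0.6.1p1). The annotation release and strand setting are not given in the sources used here. The study's methods and the labels also differ in the M-CSF dose, and the study mentions DMSO controls that the labels do not.

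Conditions and donors came from the labels. No pair of libraries was a duplicate, with a chi-square per degree of freedom of at least 19.6. Counts were analysed in R (4.3.3) with edgeR (4.0.16), limma (3.58.1) and DESeq2 (1.42.0), using filterByExpr (minimum count 10), TMM scaling and the quasi-likelihood F-test of condition, blocked by donor, with p-values adjusted by Benjamini-Hochberg. SE is that implied by the test statistic. Below an absolute log2 fold change of 0.05 it comes from tests against values shifted by 0.5 to either side. The pairing comes from the animal, and the 2 libraries of an animal deviated together from their condition's mean, with correlations over genes of 0.458 to 0.602. On counts simulated with a dispersion of 0.05, an assumed value, 196 of 200 genes changed 3-fold were recovered among 207 calls of 12042 genes, and 148 of 200 changed 2-fold among 157 calls of 12056, with 0 calls of 12055 when none was changed. These rates hold for that dispersion only. Replicates are animals, so p-values of the MRS2578 effect measure the spread between these 4. No donor had a second library of the same condition. P-values of the donor test therefore rest on the spread between a donor's libraries of different conditions, after the mean effect of condition. In the smallest library 3 counts equal 0.320 TMM-scaled CPM.

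The genes and lists were chosen with earlier results of these data known. Besides the 9 genes, those named are the 3 most abundant tested genes of each list, every list gene called with the labels or after the exchange, and the 2 genes most correlated with each transcript, of which 1 is not reported here. Positions and sequences are NCBI RefSeq's for Mmul_10. Alternatives were other scalings, tests, filters and prior counts, no block, each donor left out, and the R02046 libraries exchanged.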

Additional observations from a re-analysis of the deposited data

Results flagged for a closer look

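Of 29 groups of 4 values examined, 3 held a value far from the other 3 by Dixon's test, which marks about 1 group in 20 by chance. The JAK3 log2 CPM difference of R02046 as labelled was 3.61, and its gap to the nearest donor made up 0.832 of the range. The STAT2 level of R12016 with MRS2578 was 192 CPM, with a gap of 0.904 of the range. The STAT3 level of R12016 with uLPS was 211 CPM, with a gap of 0.890 of the range. JAK3 rests on 2 and 52 counts in that donor. The total counts of those libraries were 9231109 and 13921223.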

How the results depend on the processing

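Of 104 fold changes of the 9 transcripts under the alternatives set out at the start, 85 kept their direction and none came under the threshold. STAT2 and STAT4 kept theirs throughout, at -0.55 to -0.24 and -1.88 to -1.27, with adjusted p-values from 0.134 and from 0.0840. With the R02046 libraries exchanged, the direction turned for JAK1 (-0.11), JAK3 (-0.45), STAT5A (-0.10), STAT6 (-0.035) and the STAT5A share (-3.13 percentage points). Without the replicate block it turned for JAK3 (-0.12) and STAT6 (-0.006), and 0 genes were called. Without a filter STAT6 was at -0.003, and with at least 10 counts in every library STAT3 was at 0.006. Leaving out 1 donor gave -0.13 to 0.06 for JAK2, -0.20 to 0.46 for JAK3, -0.11 to 0.11 for STAT3, -0.06 to 0.13 for STAT5A, -0.051 to 0.066 for STAT5B and -0.07 to 0.07 for STAT6. The STAT5A share then ran from -1.71 to 2.61 percentage points, turning without R02046 and without R14143.

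Over all genes, DESeq2 called 1 and the likelihood ratio test 5 with the labels. With the exchange, the counts were 75 by the quasi-likelihood test, 583 by DESeq2, 616 by the likelihood ratio test, and 0 to 918 with 1 donor left out, 918 being without R14143. Of the 9 transcripts, 2 were then called by DESeq2, 2 by the likelihood ratio test, and 0 to 1 with a donor left out (STAT2, without R14143). In the donor test, genes called numbered 2468 by DESeq2, 2773 by the likelihood ratio test and 333 to 909 with 1 donor left out. With the exchange they numbered 2288, then 3395 by DESeq2, 3862 by the likelihood ratio test and 1088 to 3345 with 1 donor left out. Of the 9 transcripts, DESeq2 called 3, the likelihood ratio test 2 and the fits with a donor left out 0 to 1. With the exchange these were 3 by the quasi-likelihood test, 5 by DESeq2, 5 by the likelihood ratio test and 0 to 5. The cause of these shifts was not tested. Fits that combine the exchange with another choice were added after seeing the data. STAT4 was not tested without R12016, without R14143, or with at least 10 counts in every library, where JAK3 was not tested either. All 45 levels and mean differences recomputed with other scalings or prior counts moved by less than 1 SD, a wide limit where donors differ much. The mean log2 CPM difference of STAT4 went from -0.72 to -0.38 with a prior count of 0.25, at an SD of 2.09.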
